A study of Mus musculus with 6 samples.

Results

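The genes described here are the clustered histone genes, the protein-coding genes of the 4 histone gene clusters that carry the older mouse symbols *Hist1h*, *Hist2h*, *Hist3h* and *Hist4h*. There were 67 such genes among the 54838 genes of the count table. Of these, 64 had at least 1 count in the 6 samples and 43 passed the filter on low counts. The family was chosen on a measured value, because *Hist1h2ac* was among the strongest increases in these same samples, so the differences between the groups are a description. The calls from the fit across all genes serve only to name and count genes, and nothing is supported with them.

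The samples were acute myeloid leukemia cells of the I1DN model on the C57BL/6 background, which carries IDH1R132H, DNMT3AR882H and NrasG12D. The model was made by introducing these alleles into fetal liver cells, and all 6 leukemias were grown in recipients with the Ptprca allele after sub-lethal irradiation, a dose that leaves some of the host's own blood cells. Leukemia cells were sorted from bone marrow and spleen as cKit+ CD11b- cells (elsewhere in the sources the gate is given as high cKit and low CD11b), from 3 mice given vehicle and 3 mice given AG636, an inhibitor of dihydroorotate dehydrogenase, by mouth at 100 mg/kg b.i.d.. The comparison asks which genes differ when this enzyme of pyrimidine synthesis is inhibited in leukemia cells that share 1 set of driver alleles. The length of treatment is given differently in different places and is not used here.

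Histones H2A, H2B, H3 and H4 form the protein core around which DNA is wrapped, and histone H1 binds the linker DNA between the cores. The clustered genes supply most of these proteins while DNA is copied, and their replication-dependent mRNAs end just after a short stem-loop that is bound by stem-loop binding protein instead of carrying a poly(A) tail. Some clustered genes also give longer transcripts that end past the stem-loop in a poly(A) tail, and such transcripts are known from cells that leave the cell cycle. The libraries were primed on runs of A and count 1 transcript end per read, so they are set up to count the tailed form. The table holds a count per gene with no position, so it does not show which end a count came from, and the presence of a tail was not tested.

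The sequences below show the difference in annotated ends that the results are ordered by. In the mouse GENCODE annotation on GRCm38 (mm10), the histone stem-loop (a pattern of 16 bases, searched after the stop codon with at most 1 mismatch) was found in 45 of the 67 genes, and 25 of them held the same 16 letters. The models of 13 genes end at the stop codon, so none could be found there, and those of *Hist1h1a* and *Hist2h3b* end inside the stem-loop letters. A missing match therefore does not show that a gene lacks the stem-loop. The first 4 sequences are stem-loops, in capitals, with the bases beside them, at chr13:23683472-23683497 (minus strand), chr13:23739507-23739532 (plus), chr11:58949344-58949369 (plus) and chr3:96220413-96220438 (minus).
*Hist1h2ac* stem-loop: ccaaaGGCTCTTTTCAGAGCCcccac
*Hist1h1c* stem-loop: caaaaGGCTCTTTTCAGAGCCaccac
*Hist3h2ba* stem-loop: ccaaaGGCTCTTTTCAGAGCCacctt
*Hist2h2ac* stem-loop: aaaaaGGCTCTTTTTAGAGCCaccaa
In *Hist2h2ac* the annotated transcript ended 57 bases after the stem-loop. In *Hist1h2ac*, *Hist1h1c* and *Hist3h2ba* it ran on for 2010, 840 and 169 bases past it. *Hist3h2ba*, with 213 annotated bases after the stop codon, lies under the limit of 300 bases used below and counts there as short.

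The last bases of the annotated models can be compared in the same way. The next sequences are the last 30 annotated bases of 4 genes, with a poly(A) signal hexamer in capitals where one was found, at chr3:96223709-96223738, chr13:23740338-23740367 and chr11:58949504-58949533 (all plus strand) and chr13:23681467-23681496 (minus).
*Hist2h2be* end: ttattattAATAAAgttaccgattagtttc
*Hist1h1c* end: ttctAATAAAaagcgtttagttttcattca
*Hist3h2ba* end: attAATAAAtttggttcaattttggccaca
*Hist1h2ac* end: cgaggccagcatggcttttattcaggatcc
The hexamer AATAAA, or its common variant ATTAAA, stood in the last 50 annotated bases of 16 of the 67 genes. All 4 genes printed here are among those called higher below, of which 4 had a hexamer and 5 had none. *Hist1h2ae*, not printed, had a hexamer and was called lower. *Hist1h2ac* had none there, and its annotated transcript also held a run of 15 A, on which priming inside the transcript was possible and was not tested.

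*Hist1h2ac*, which encodes a core histone H2A, was the gene with the largest increase of the family. It lies on the minus strand at chr13:23681467-23683948 in 1 exon. Its counts were 77, 123 and 74 in the vehicle samples and 273, 204 and 286 in the AG636 samples. As counts-per-million of the scaled library size (CPM), these were 13.7, 16.1 and 15.5 against 58.0, 42.1 and 54.0. Every AG636 sample lay above every vehicle sample. The group means were 15.1 ± 1.22 and 51.3 ± 8.28 CPM (SD, n = 3 each), and the fitted log2 fold change was 1.76 with a standard error of 0.18. The other 2 annotated genes that overlap its exon had 0 counts in the table.

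Across the family the changes went in both directions. A gene is called higher or lower here where edgeR's quasi-likelihood test gave an adjusted p under 0.05. Of the 43 genes that passed the filter, 9 were called higher, 16 lower and 18 neither. Without *Hist1h2ac*, the gene for which the family was chosen, 8 of 42 were called higher. Over all 11092 genes that passed, 10.3% were called higher and 11.0% lower. Because the family was proposed from this contrast, nothing is read from the difference between these shares. The median log2 fold change of the 43 genes was -0.82, with a range from -2.43 to 1.76, beside a median of 0.03 over all genes tested, and 17 of the 43 lay above 0. The number of calls depended on single libraries: the count called lower was 8 without vehicle 1, 5 without vehicle 2, 6 without AG636 1 and 4 without AG636 3, and the count called higher was 5 without AG636 3. The filter keeps a gene that has enough counts in only 1 group, so a gene that was high in vehicle alone could pass only with a lower value. With at least 10 counts required in every sample the median was 0.29 over 27 genes, of which 9 were called higher and 10 lower. Of the 16 genes left out by that filter, 14 had the higher mean in vehicle. The 24 genes that did not pass had at most 68 counts each over the 6 samples, and 3 of them (*Hist1h2br*, *Hist2h2aa1* and *Hist2h3c1*) had none.

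The genes called higher had, with 1 exception, long annotated ends. Of the 67 genes, 22 have at least 300 annotated bases after the stop codon and are called extended below, while 45 have fewer. The limit was set after the values were seen, in a gap between *Hist1h1t* with 230 bases and *Hist1h4i* with 376, so no test is given. Of the 16 extended genes that passed the filter, 8 were called higher and 1 lower, 12 lay above 0 and the median log2 fold change was 0.73. These 16 include *Hist1h2ac*, for which the family was chosen, and their values were not computed without it. Of the 27 short genes that passed, 1 was called higher and 15 lower, 5 lay above 0 and the median was -1.30. Over all genes tested, 10.3% were called higher and 11.0% lower, and nothing is read from the differences. Of these 27, 14 had under 10 counts in some sample, 12 of them with the higher mean in vehicle, so the counts and median of those that passed are no support for a fall. With at least 10 counts in every sample, 13 short genes remained, of which 1 was called higher and 9 lower (median -1.06), beside 14 extended genes, of which 8 were called higher and 1 lower (median 0.84). Just inside the limit, *Hist1h4i* had a log2 fold change of 0.39 ± 0.13 (standard error) and *Hist1h3e* of -1.16 ± 0.61. Just outside it, *Hist3h2ba* had 1.33 ± 0.24 and *Hist1h2bg* -1.30 ± 0.42. *Hist1h3e* and *Hist1h2bg* had under 10 counts in some sample and the higher mean in vehicle, so the filter favored a lower value.

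**Figure D1:**
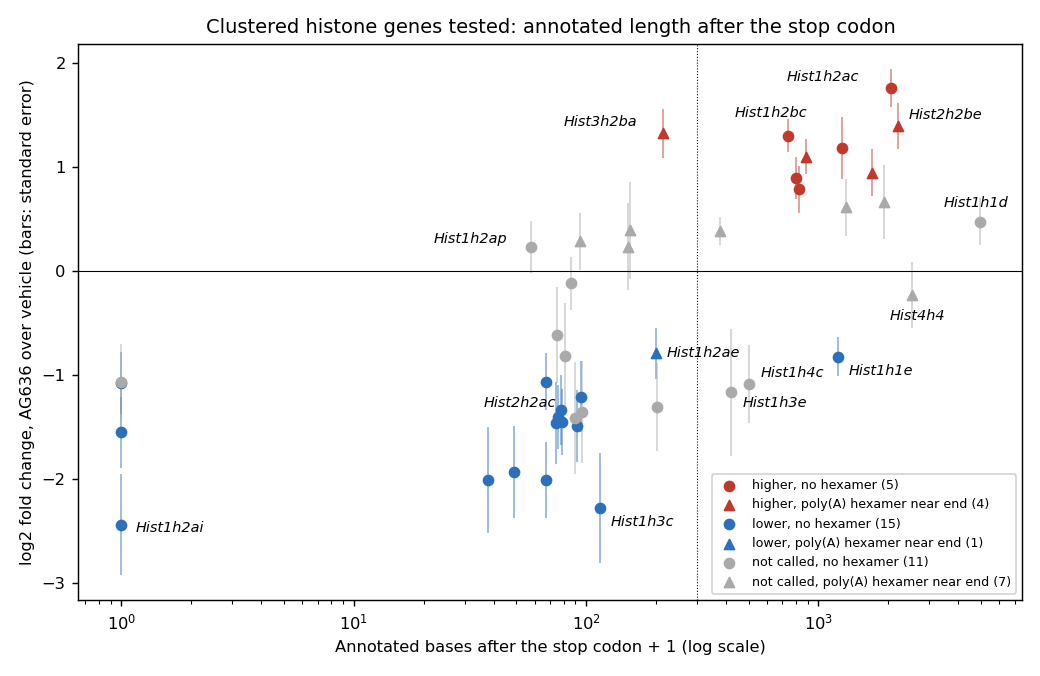
The log2 fold change between AG636 and vehicle (vertical axis, bars show 1 standard error) is plotted for the 43 clustered histone genes tested against the annotated bases after the stop codon plus 1 on a log scale; red, blue and gray mark genes called higher, lower and neither, triangles a poly(A) hexamer in the last 50 bases and the dotted line 300 bases. To the right of the line 12 of 16 genes lie above 0, and to its left 5 of 27 do.

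Across the 43 genes, the annotated length after the stop codon and the log2 fold change had a Spearman correlation of 0.72, given as a description since the genes share the same libraries. Of these 43, 16 had under 10 counts in some sample, 14 of them with the higher mean in vehicle. The filter favored a lower value for such genes, and the correlation was not computed without them. The genes differ in more than length. The median level of the extended genes tested was 22.4 CPM and that of the short ones 4.76 CPM, and the mean level correlated with the log2 fold change by 0.60. Sequence shared with other genes also differed: a median of 0% of the 50-base words in the last 300 bases of the extended genes occurred in another gene, against 63.7% for the short ones. Reads that match several genes may not have been counted, and their part in the result was not tested. Among genes with under 50% of such words, the medians were 0.84 over 14 extended genes and -1.20 over 11 short genes. Some of these short genes also had under 10 counts in some sample, so their median has the same limit. Annotation of a long end is no measure of its use, because reads past an annotated end are not counted for that gene.

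The poly(A) hexamer gave a related division. Of the 12 genes tested with a hexamer near the annotated end, 10 lay above 0, and of the 31 without one, 7 did. Of those 31, 14 had under 10 counts in some sample, all with the higher mean in vehicle. With at least 10 counts in every sample, 8 of 10 genes with a hexamer lay above 0 and 7 of 17 without one. Of the genes called higher, 4 had a hexamer and 5 had none. *Hist3h2ba*, the 1 short gene called higher, carries the hexamer printed above. *Hist1h2ae*, also with a hexamer, was called lower. Where a gene had neither a long end nor a hexamer, 21 of 22 genes tested lay below 0 and 14 were called lower, with a median of -1.38. Of these 22 genes, 12 had under 10 counts in some sample, all with the higher mean in vehicle. Among the other 10, 9 lay below 0 and 8 were called lower, with a median of -1.14. Over all genes tested, 10.3% were called higher and 11.0% lower, and nothing is read from the differences.

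Summed over all 67 genes, whether or not they passed the filter, the family had 659, 666 and 647 CPM in the vehicle samples and 794, 822 and 980 CPM in the AG636 samples. The means were 657 ± 9.52 and 865 ± 101 CPM, a ratio of 1.32, and the groups did not overlap. The extended genes summed to 367 ± 12.2 CPM in vehicle and 637 ± 88.3 CPM with AG636, a ratio of 1.73, and every AG636 sample lay above every vehicle sample. This sum includes *Hist1h2ac*, for which the family was chosen, and was not taken without it. The short genes summed to 290 ± 9.44 and 228 ± 43.0 CPM, a ratio of 0.787. Without *Hist1h2ap* and *Hist1h2ao*, the ones with the highest levels, the short genes had 167 ± 26.8 and 93.7 ± 10.3 CPM, a ratio of 0.560. Extended genes held 54.3%, 57.2% and 56.0% of the family's counts in the vehicle samples and 77.4%, 68.4% and 74.9% in the AG636 samples. The family as a whole took 0.0627% to 0.102% of all counts of a sample. Fewer cells that express a gene and less RNA per cell cannot be told apart in these bulk samples.

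**Figure D2:**
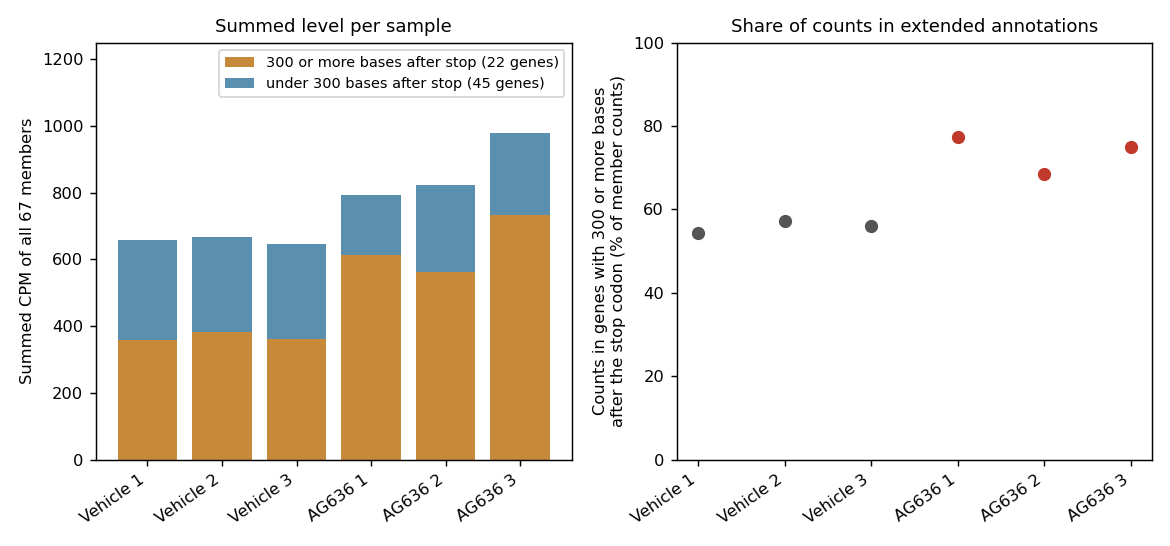
Left, CPM summed over the 22 extended (orange) and 45 short (blue) clustered histone genes in each of the 6 samples; right, the percent of the family's counts in extended genes per sample, vehicle in gray and AG636 in red. The extended part is larger in every AG636 sample, and its share lies between 54.3% and 57.2% in vehicle and between 68.4% and 77.4% with AG636.

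Linker histone H1 genes differed from each other. *Hist1h1c*, an H1 gene with 880 annotated bases after its stop codon, had 46.7, 41.6 and 35.9 CPM in vehicle and 71.8, 92.2 and 103 CPM with AG636, a log2 fold change of 1.10 ± 0.17. *Hist1h1e*, another H1 gene, had 57.9, 45.8 and 38.2 CPM in vehicle and 25.7, 30.1 and 24.5 CPM with AG636, a log2 fold change of -0.82 ± 0.19. The groups did not overlap for either gene, and they moved in opposite directions. *Hist1h1e* has 1209 annotated bases after the stop codon and was the only extended gene called lower, but its exon overlaps that of *Hist1h2be* on the same strand and all of the 50-base words in its last 300 bases are shared, so its value is uncertain. The same overlap applies to *Hist1h2be*, an extended H2B gene above 0 that was not called (0.66 ± 0.35), so its value is uncertain too. The ratio of *Hist1h1c* to *Hist1h1e* counts was 0.806, 0.909 and 0.940 in vehicle and 2.79, 3.06 and 4.18 with AG636. Since both genes separated the groups, in opposite directions, this ratio had to separate them too. It also shares the uncertainty of *Hist1h1e*. The short H1 gene *Hist1h1a* had 6.06, 3.01 and 5.22 CPM in vehicle and 1.49, 1.44 and 0.755 CPM with AG636, a log2 fold change of -1.93 ± 0.44, and *Hist1h1b*, whose annotation ends at the stop codon, had -1.08 ± 0.30. *Hist1h1a* had under 10 counts in each AG636 sample and the higher mean in vehicle, so the filter favored a lower value. The fifth H1 gene tested, *Hist1h1d*, had 0.48 ± 0.23 and was not called.

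Among the H2A genes, the 2 extended ones, *Hist1h2ac* and *Hist3h2a*, were both called higher, and 6 of the 9 short ones tested were called lower. *Hist1h2ac* is the gene for which the family was chosen, so its call was known beforehand. Over all genes tested, 10.3% were called higher and 11.0% lower. Of the 9 short ones, *Hist1h2ai* and *Hist1h2ab* had under 10 counts in some sample and the higher mean in vehicle, so the filter favored a lower value. *Hist3h2a*, an H2A gene of the third cluster, had 18.5, 25.2 and 20.3 CPM in vehicle and 38.9, 31.1 and 54.0 CPM with AG636 (log2 fold change 0.95 ± 0.23). *Hist1h2ai* had the lowest value of the family, with 3.57, 5.10 and 2.30 CPM in vehicle and 0.637, 0.619 and 0.755 CPM with AG636 (-2.43 ± 0.48). Its AG636 values stand for few counts, since 3 counts correspond to 0.392 to 0.637 CPM, and 99.2% of the words at its end are shared. The other H2A genes called lower were *Hist1h2an* (-1.55), *Hist1h2ab* (-1.45), *Hist1h2ag* (-1.40), *Hist2h2ac* (-1.20) and *Hist1h2ae* (-0.79).

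*Hist1h2ap* and *Hist1h2ao* were the H2A genes with the most counts, and neither was called. *Hist1h2ap* had 74.0, 63.0 and 122 CPM in vehicle and 75.2, 117 and 111 CPM with AG636. *Hist1h2ao* had 42.8, 40.4 and 26.7 CPM in vehicle and 22.5, 43.3 and 35.9 CPM with AG636. The groups overlapped for both, with log2 fold changes of 0.23 ± 0.25 and -0.12 ± 0.25. Both annotated transcripts hold a run of 12 A just before the stem-loop, shown for *Hist1h2ap* by its last 30 bases at chr13:21833026-21833055 (minus strand), which end 3 bases after the stem-loop.
*Hist1h2ap* end: aaaaaaaaaaaggctcttttcagagccatc
Between 88.8% and 100% of the words in their last 300 bases occur in another gene, so the split of reads between such copies is uncertain. Priming on this run of A was not tested.

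Among the H2B genes, 3 of the 4 extended ones tested were called higher, beside 10.3% of all genes tested. *Hist1h2bc* had 32.4, 27.3 and 29.3 CPM in vehicle and 62.4, 72.2 and 85.1 CPM with AG636 (1.31 ± 0.16). *Hist2h2be* had 17.8, 15.3 and 23.0 CPM in vehicle and 44.2, 40.2 and 62.3 CPM with AG636 (1.40 ± 0.22). No AG636 sample overlapped a vehicle sample for either gene. *Hist1h2bh* had means of 4.92 ± 1.31 and 11.0 ± 2.40 CPM (1.18 ± 0.30). The short *Hist3h2ba* had 7.13, 11.4 and 7.52 CPM in vehicle and 19.3, 21.0 and 25.7 CPM with AG636 (1.33 ± 0.24). Of the short H2B genes, *Hist1h2bj* was lower, with 8.91, 9.94 and 5.64 CPM in vehicle and 2.55, 2.27 and 1.32 CPM with AG636 (-2.01 ± 0.37). Of the 8 short H2B genes tested, 5 had under 10 counts in some sample, 4 of them with the higher mean in vehicle. *Hist1h2bj* was among these 4, so the filter favored a lower value. *Hist1h2bk* (-1.45) and *Hist1h2bb* (-1.06) were also called lower.

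Histone H3 had the gene with the highest level of the family. *Hist1h3d*, an extended gene, had 73.8, 108 and 102 CPM in vehicle and 176, 133 and 219 CPM with AG636, with no overlap between the groups and a log2 fold change of 0.90 ± 0.20. The 4 short H3 genes tested all lay below 0 and 3 of them were called lower, beside 11.0% of all genes tested. However, all 4 had under 10 counts in some sample and the higher mean in vehicle, so the filter favored a lower value. *Hist1h3c* had 10.2, 12.2 and 4.18 CPM in vehicle and 2.34, 2.68 and 0.566 CPM with AG636 (-2.28 ± 0.53), *Hist2h3b* had -2.01 ± 0.51 and *Hist1h3a* -1.49 ± 0.35. For *Hist2h3b*, all of the words at the annotated end are shared with other genes.

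Of 9 histone H4 genes tested, 1 was called in each direction, beside 10.3% called higher and 11.0% lower over all genes tested. *Hist1h4d*, with 822 annotated bases after the stop codon, was higher (8.38, 10.1 and 11.3 CPM in vehicle and 14.2, 16.5 and 20.6 CPM with AG636, 0.79 ± 0.23), and the short *Hist1h4b* was lower (-1.33 ± 0.34). *Hist1h4i*, the H4 gene with the highest level, had 52.1, 53.8 and 48.9 CPM in vehicle and 74.8, 62.9 and 64.9 CPM with AG636. These groups did not overlap, but its log2 fold change of 0.39 ± 0.13 was not called. *Hist4h4*, the single gene of the fourth cluster, had an annotated end of 2515 bases and -0.23 ± 0.32. The extended *Hist1h4c*, with 503 annotated bases after the stop codon and 0% shared words, also lay below 0. It had 5.71, 5.76 and 3.76 CPM in vehicle and 1.49, 2.47 and 3.21 CPM with AG636 (-1.08 ± 0.37). Its groups did not overlap, but it was not called (edgeR adjusted p = 0.0631). *Hist1h4c* had 7 counts in AG636 1, so the filter favored a lower value. By cluster, 6 of 36 genes tested in the first were called higher and 14 lower, against 1 and 2 of 4 in the second and both genes of the third called higher. The same shares over all genes stand beside these counts, and nothing is read from the differences.

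**Figure D3:**
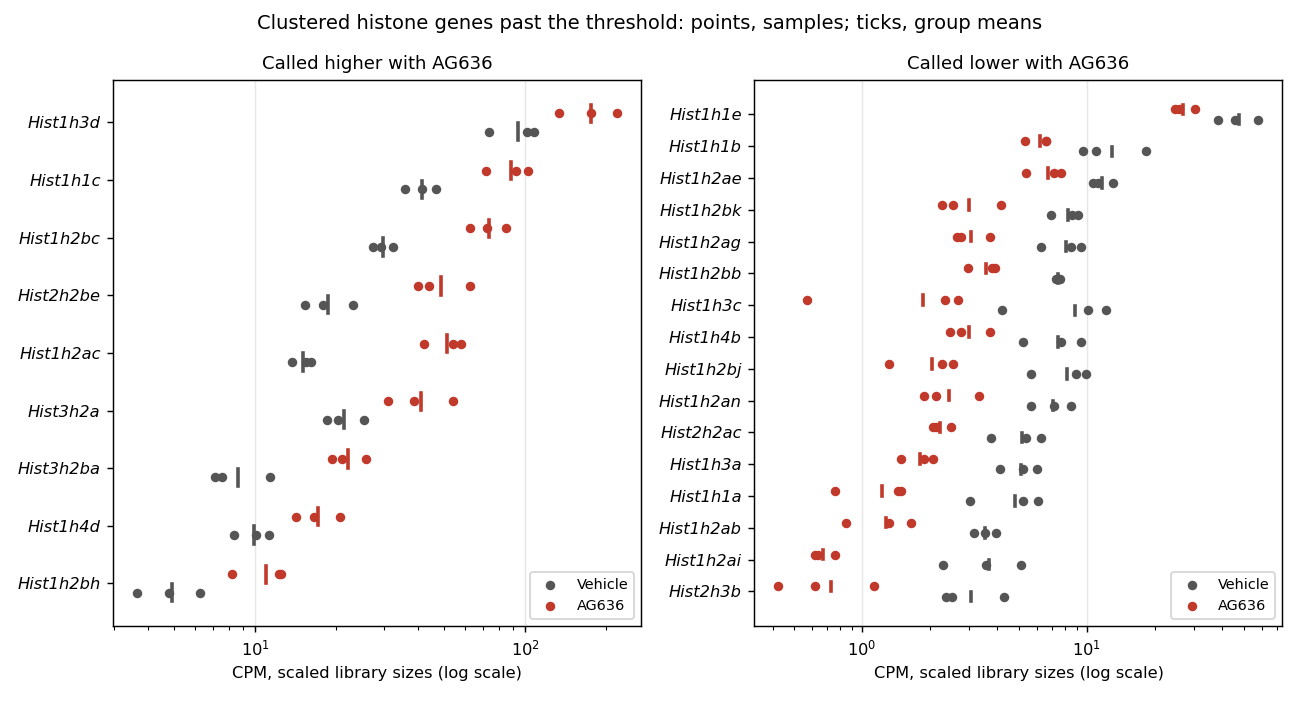
CPM of the 9 clustered histone genes called higher (left) and the 16 called lower (right) on a log axis, with 1 point per sample in gray for vehicle and red for AG636 and a tick at each group mean (n = 3). For every gene shown the 3 AG636 samples lie on one side of the 3 vehicle samples, which is a description of genes picked by their calls.

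Clustered H2A and H2B genes often lie head to head and share the DNA between their starts, and 12 such pairs with at most 500 bases between the starts were found. In the pair *Hist2h2ac* and *Hist2h2be* on chromosome 3, with 238 bases between the starts, the 2 genes went in opposite directions. *Hist2h2ac*, with 94 annotated bases after the stop codon, had 35, 41 and 18 counts in vehicle and 10, 12 and 11 with AG636. *Hist2h2be*, with 2192 such bases, had 100, 117 and 110 counts in vehicle and 208, 195 and 330 with AG636. The ratio of *Hist2h2be* to *Hist2h2ac* within a sample was 2.86, 2.85 and 6.11 in vehicle and 20.8, 16.3 and 30 with AG636. Each gene alone already separated the groups, in opposite directions. The ratio therefore had to separate them too and adds no support. No stem-loop was found after the stop codon in the annotated model of *Hist2h2be*.

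The pair *Hist1h2ac* and *Hist1h2bc* on chromosome 13, with 250 bases between the starts, went up together. Both have long annotated ends, of 2058 and 742 bases. *Hist1h2bc* is annotated with 2 exons, the second at chr13:23692176-23692908, and no stem-loop lies in the spliced model. The ratio of *Hist1h2ac* to *Hist1h2bc* counts was 0.423, 0.589 and 0.529 in vehicle and 0.929, 0.583 and 0.634 with AG636, and the groups overlapped. In the pair *Hist1h2ag* and *Hist1h2bj*, with 269 bases between the starts and annotated ends of 75 and 66 bases, both genes were called lower. Of the short genes *Hist1h2an* and *Hist1h2bp*, with ends of 0 and 150 bases, the first was called lower (-1.55) and the second was not called (0.24 ± 0.42). *Hist1h2ae* and *Hist1h2bg*, with ends of 199 and 200 bases, both lay below 0 (-0.79 and -1.30), and only *Hist1h2ae* was called. *Hist1h2bg* had 6 counts in AG636 1 and *Hist1h2bj* 7 in AG636 3. Both had the higher mean in vehicle, so the filter favored a lower value for them. Every other pair held a gene that was not tested.

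**Figure D4:**
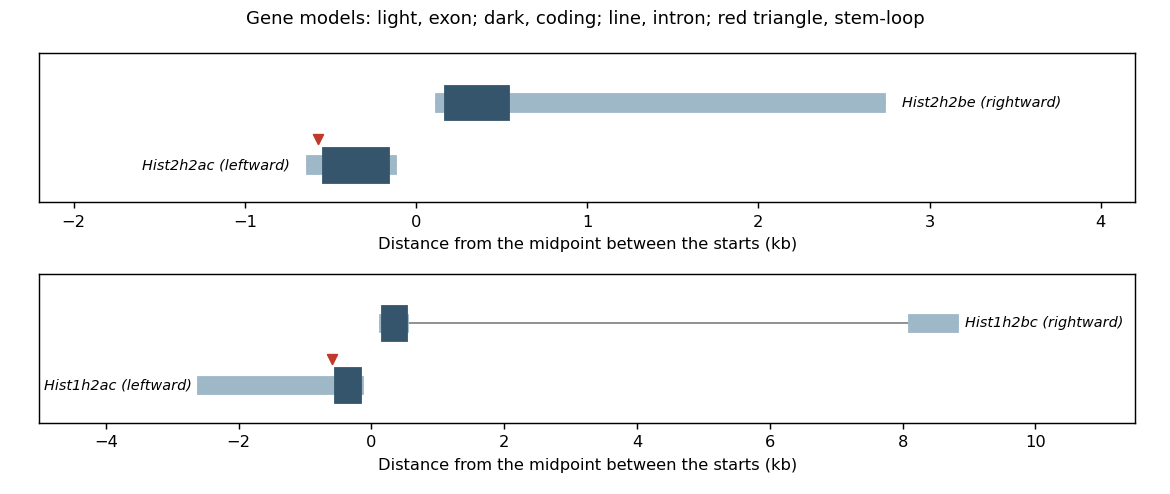
Annotated models of 2 head-to-head pairs, drawn by distance in kb from the midpoint between the starts, with exons in light blue, coding sequence in dark blue, the intron as a line and the stem-loop as a red triangle. The *Hist2h2ac* model ends shortly after its stem-loop, while those of *Hist2h2be*, *Hist1h2ac* and *Hist1h2bc* reach 742 to 2192 transcript bases past the stop codon.

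**Figure D5:**
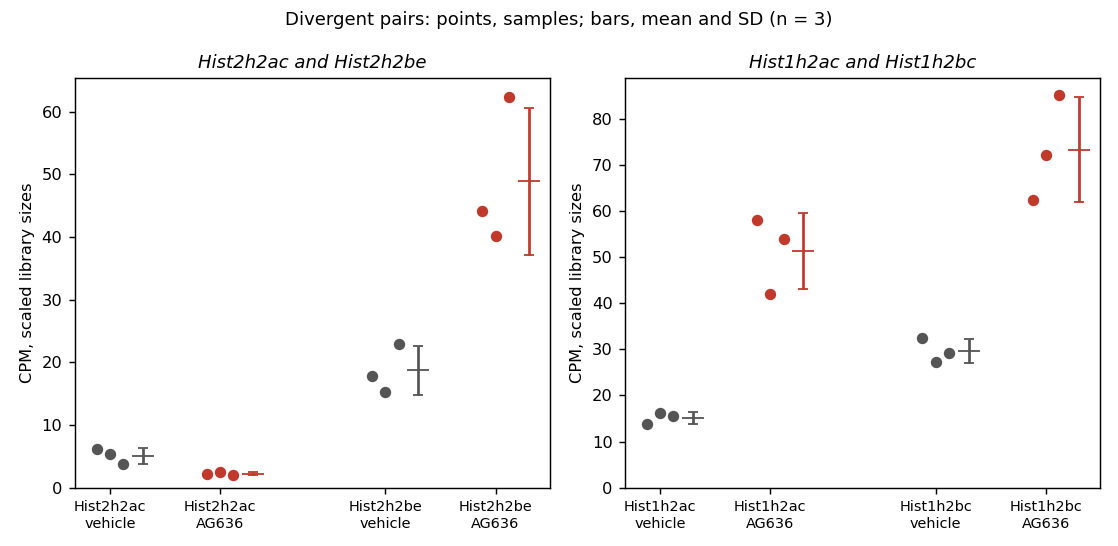
CPM of the genes of both pairs, with 1 point per sample and bars for the mean and SD (n = 3). *Hist2h2ac* is lower and *Hist2h2be* higher in every AG636 sample, while *Hist1h2ac* and *Hist1h2bc* are both higher.

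The DNA between the starts is shown for both drawn pairs because one went in opposite directions and the other did not. The sequences are the 300-base promoter windows of the H2A genes from RefSeq on GRCm38.p6, on the minus strand at chr3:96220831-96221130 and chr13:23683910-23684209, and each also covers the start of the H2B partner. Capitals mark the CCAAT box, the letters TATAA of the TATA box and the octamer motif ATTTGCAT, searched on both strands, and no marked letters of 1 motif are shared with another.
*Hist2h2ac* window: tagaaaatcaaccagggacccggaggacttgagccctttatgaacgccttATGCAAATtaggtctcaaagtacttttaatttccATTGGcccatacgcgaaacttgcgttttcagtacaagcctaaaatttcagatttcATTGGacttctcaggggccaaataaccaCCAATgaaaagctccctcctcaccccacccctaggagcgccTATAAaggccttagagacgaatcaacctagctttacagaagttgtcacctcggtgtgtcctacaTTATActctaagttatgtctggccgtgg
*Hist1h2ac* window: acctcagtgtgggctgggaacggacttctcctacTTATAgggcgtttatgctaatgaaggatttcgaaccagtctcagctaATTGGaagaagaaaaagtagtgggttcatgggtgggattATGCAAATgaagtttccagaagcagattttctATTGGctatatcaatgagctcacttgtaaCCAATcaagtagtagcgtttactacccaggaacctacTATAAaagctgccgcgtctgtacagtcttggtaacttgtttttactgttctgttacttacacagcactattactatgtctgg
All 3 motifs occur in both windows. Windows were found for 62 of the 67 genes, of which 53 held the CCAAT box, 49 the TATAA letters and 13 the octamer. These are 85.5%, 79.0% and 21% of them, beside 37.9%, 25.5% and 1.8% of all 27025 windows of the table. A match is a description of letters and not of binding.

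Other genes of the same pathway were taken from hand-written lists, and all of their members are counted. Histone genes without the cluster symbols form the list called replication-independent here. Most such genes give tailed mRNAs outside DNA replication too, which was not tested for each listed gene. Of 10 tested, all lay above 0 with a median log2 fold change of 0.31, and 2 rose in edgeR's quasi-likelihood test (Benjamini-Hochberg adjusted over all genes tested), beside 10.3% of all genes tested. *H1f0*, a linker histone of cells at rest, had 39.9, 48.8 and 57.0 CPM in vehicle and 83.7, 120 and 111 CPM with AG636 (1.11 ± 0.18, edgeR adjusted p = 0.00475). *H2afv*, an H2A.Z gene, had 403, 428 and 451 CPM in vehicle and 706, 666 and 916 CPM with AG636 (0.84 ± 0.14, edgeR adjusted p = 0.00493). The other genes of this list followed by rule did not pass the threshold: *H2afx* had 0.44 ± 0.16, *H2afz* 0.05 ± 0.10, *H3f3a* 0.27 ± 0.11 and *H3f3b* 0.17 ± 0.10. With library size alone in place of scaled library sizes, 4 of the 10 were called higher.

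Of 15 tested genes for the transcription and end processing of histone mRNA, edgeR called 3 lower (beside 11.0% of all genes tested) and 0 higher, with 6 lower and 1 higher at an unadjusted p under 0.05, and DESeq2 and limma-voom also called 0 higher. The median was -0.27. *Slbp*, the stem-loop binding protein, had 165, 132 and 171 CPM in vehicle and 165, 140 and 143 CPM with AG636, so the groups overlapped, and its log2 fold change was -0.06 ± 0.14. *Npat* and *Casp8ap2*, which act in the transcription of the clustered genes, had -0.27 ± 0.16 and -0.07 ± 0.14 and did not pass. The 3 that fell were *Srrt* (-0.56 ± 0.13) and *Ncbp1* (-0.52 ± 0.12), which act at the mRNA cap, and *Cpsf3* (-0.37 ± 0.11), the endonuclease that cuts both histone and tailed mRNAs, with edgeR adjusted p of 0.0146, 0.0142 and 0.0392. The count called lower was 1 without vehicle 2 and 1 without AG636 3, and with library size alone *Cpsf3* was not called (-0.28, edgeR adjusted p = 0.0981). Under that scaling *Slbp* and *Casp8ap2* lay above 0, at 0.03 and 0.02. Of 15 genes for cleavage and polyadenylation, edgeR, DESeq2 and limma-voom called 0, with 2 lower and 0 higher at an unadjusted p under 0.05 in edgeR. Their median was -0.08 and turned to 0.01 with library size alone and without AG636 3, and 1 was called lower without AG636 2.

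Of 20 histone chaperones, edgeR called 3 lower (beside 11.0% of all genes tested) and 0 higher, with 9 lower and 0 higher at an unadjusted p under 0.05, and DESeq2 and limma-voom also called 0 higher. *Ipo4*, an importin that carries H3 and H4, had 57.4, 51.3 and 51.0 CPM in vehicle and 22.7, 24.1 and 24.4 CPM with AG636 (-1.16 ± 0.15, edgeR adjusted p = 0.00245). *Nasp*, a chaperone of soluble H3 and H4, had -0.78 ± 0.13 (edgeR adjusted p = 0.00529) and *Nap1l1*, a chaperone of H2A and H2B, -0.49 ± 0.10 (edgeR adjusted p = 0.0116). The groups did not overlap for the 3 chaperones called lower, which is a description of genes picked by their calls. Without AG636 2, 1 chaperone was called higher.

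Of 44 DNA replication genes, edgeR called 9 lower (beside 11.0% of all genes tested) and 0 higher, with 15 lower and 0 higher at an unadjusted p under 0.05, and DESeq2 and limma-voom called 0 higher. Their median was -0.21, with 38 below 0. The 6 with the lowest p included the origin and licensing factors *Mcm10* (-0.70 ± 0.14), *Orc2* (-0.79 ± 0.17), *Cdc6* (-0.72 ± 0.17), *Mcm5* (-0.45 ± 0.11) and *Cdt1* (-0.63 ± 0.16), and the polymerase subunit *Pold2* (-0.63 ± 0.14), with edgeR adjusted p between 0.0115 and 0.0243. The count called lower was 3 without vehicle 1, 4 without vehicle 2 and 0 without AG636 3. The median was -0.12 with library size alone, -0.14 without AG636 3 and -0.31 without AG636 1.

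The samples held 4634963 to 7906589 counts. *Kit*, by which the cells were sorted, had a log2 fold change of 0.15 ± 0.17, while *Itgam*, which encodes CD11b, rose from 19.1 ± 7.45 to 44.2 ± 14.6 CPM (1.21 ± 0.31, edgeR adjusted p = 0.0219). Of 9 markers of mature neutrophils, 6 were called higher with a median of 1.16, none was at 0, and their summed level was 1070 to 2437 CPM in vehicle and 2966 to 6014 CPM with AG636. Of 7 erythroid markers 2 were called lower, of 5 macrophage markers tested 1 was called higher, and of 4 megakaryocyte markers 2 were called higher, beside 10.3% higher and 11.0% lower over all genes tested. Of the markers of B cells and of T and NK cells, 2 of 6 and 2 of 8 passed the filter. These markers moved in the same samples as the clustered histone genes, and their part in the results was not tested. Of all calls, 1146 were higher and 1222 lower, and with library size alone 1483 and 913.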

How the data were processed

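RNA from 3 vehicle and 3 AG636 samples, each from a separate mouse, was analysed. The authors deposited counts per gene: cutadapt trimmed the QuantSeq 3′ reads, HISAT2 placed them on mm10 and featureCounts of Subread assigned them to genes. The submitters' processing notes give versions 1.9.1, 2.0.4 and 1.5.0-p3, while the study's methods give other versions of cutadapt and Subread. The annotation release, strand setting and handling of reads with several matches are not given in the sources used here. No molecular identifiers are described, so depth limits cover counting error only.

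The fit used edgeR 4.0.16 in R 4.3.3 (filterByExpr with minimum count 10 and minimum total 15, TMM, quasi-likelihood test, Benjamini-Hochberg adjustment over all 11092 genes tested). TMM factors were 0.953 to 1.043. The median standard error of the 43 clustered histone genes tested was 0.32. The code was tested on simulated data. Alternatives were DESeq2 1.42.0, limma-voom (limma 3.58.1), other scalings and filters, a replicate block and leaving out each sample. Replicate numbers did not pair the samples (correlations -0.0573, -0.178 and 0.224).

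Symbols, transcript ends and motifs came from GENCODE and RefSeq tables, and 3 histone pseudogenes were left out. The genes and lists were chosen with earlier results of these data known. By rule, the text names *Hist1h2ac*, up to 15 called clustered genes with the largest change, the 10 with the highest level, the highest of each histone type, and from each list up to 6 called genes of lowest p plus 8 fixed ones. Others were named after their values were seen. The gene length in the deposited table was not used.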

Additional observations from a re-analysis of the deposited data

How the results depend on the processing

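The number of clustered histone genes called lower was 10 with at least 10 counts required in every sample, a filter that removes genes that fell, and 4 to 15 when 1 sample was left out. The number called higher was 5 to 9 when 1 sample was left out. The median log2 fold change of the clustered genes was -1.01 without a filter on low counts (64 genes) and turned to 0.29 with at least 10 counts in every sample (27 genes). The median of the short genes was -1.06 under that filter and -1.43 to -1.04 when 1 sample was left out, while the median of the extended genes stayed between 0.61 and 0.84. With the replicate block, 9 genes were called higher and 13 lower, with a median of -0.81, and over all genes 914 were called higher and 1046 lower. The ratio of the summed levels lay between 1.23 and 1.40 over all alternatives run, and it was 1.27 without *Hist1h2ac*.

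Chosen after the data were seen were a limit of 700 bases after the stop codon (medians 0.90 and -1.18), genes with under 50% shared words (0.84 and -1.20) and a long end or a hexamer near the end against neither (0.62 and -1.38). Of 279 values of 22 named clustered genes over 13 alternatives, 247 kept their side of the threshold, 31 lost the call and 1 gained it. Direction turned in 1 of these values, of the uncalled *Hist1h2ao*. *Hist1h2ac* lay between 1.66 and 1.89. Of 273 values of list genes, 247 kept their side, 22 lost the call and 4 gained it, and direction turned in 4 values of the uncalled *Casp8ap2*, *H2afz* and *Slbp*. The cause of lost calls was not tested, but a left-out sample leaves fewer samples. Depth limits genes of few counts, since 3 counts are 0.392 to 0.637 CPM.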
